A study of Mus musculus with 3 samples.

Results

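A set of 674 mouse genes was high in both brain and testis and low in liver. They were chosen by the measured values themselves: a gene belonged when it had 5 FPKM or more in brain and in testis, and when the lower of its brain and testis values was 4-fold or more above its liver value on the log2(FPKM + 1) scale. FPKM is the number of sequenced fragments per kilobase of transcript, scaled to the mapped fragments of the library, so it is a level per length. Of 36809 gene identifiers in the tables, 29710 lay at loci of 200 bp or more with an estimate marked OK in all 3 tables, and the 674 were 2.27% of these. Since the rule used the 3 levels, the levels of these genes are given as a description and no test was run on them.

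The libraries held polyadenylated RNA from the brain, the whole testis and the liver of male C57BL/6 mice aged 11 weeks, 1 strand-specific library per tissue. All 3 tissues came from the same strain, with no allele or treatment named, and the labels do not say whether animals were pooled. With a single library per tissue, the spread between animals is unknown, and no difference has a replicate check or a p-value. In whole organs, fewer cells of a type and less RNA per cell cannot be told apart. Implied counted fragments came to 31.8 M in brain, 40.9 M in testis and 86.4 M in liver, and the upper bound of the deposited interval lay a median of 5.77% above the value in brain, 4.91% in testis and 21.9% in liver for the 674 genes. The brain and testis intervals of all 674 lay above the liver interval. The genes were chosen for a 4-fold excess over liver on these same values, so this separation largely follows from the rule and gives no support.

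As background, brain and testis are known for transcriptomes that resemble each other more than most organs do. Neurons and developing germ cells both build long microtubule structures, the axon and dendrites in one and the sperm flagellum in the other, and both carry cargo along them with kinesin and dynein motors. Most neurons and astrocytes also bear a primary cilium, which is assembled by the intraflagellar transport machinery that builds the flagellum, whereas hepatocytes are known to lack one.

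Of the 5660 genes at 5 FPKM or more in both brain and testis, the 674 were 11.9%. The same rule with the tissues exchanged found 324 genes for brain and liver against testis, which were 1.09% of all loci tested and 6.92% of the 4683 at 5 FPKM or more in both. It found 98 for testis and liver against brain, which were 0.33% of all loci and 2.31% of 4247. The brain and testis set was therefore the largest of the 3 such sets under the deposited values. Its lead depended on the scaling. After median-ratio scaling the rule gave 406 genes for brain and testis, 400 for brain and liver and 136 for testis and liver, so the first 2 sets were nearly equal in number. After scaling to the protein-coding sum the 3 counts were 1166, 400 and 60 in that order, and with the FPKM sum over loci of 200 bp or more they were 1115, 371 and 62.

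Among the 674, the median level was 18.8 FPKM in brain, 29.5 FPKM in testis and 0.803 FPKM in liver. The median difference between the lower of brain and testis and liver was 2.73 on the log2(FPKM + 1) scale, beside 0.52 over the 5660 genes and 0 over all loci tested. At higher limits, 253 genes were 8-fold or more above liver, 77 were 16-fold or more and 20 were 32-fold or more. In liver 370 of the 674 were under 1 FPKM and 27 were listed at 0, whereas 97 had 5 FPKM or more there. Low in liver thus covered both genes near the detection limit and genes that liver also expressed at a moderate level.

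The set did not follow the classical markers of neurons and germ cells, so it is called here the genes shared by brain and testis. Of 15 neuronal markers, 12 of them with an estimate marked OK in every table, only Map2 and Tubb3 belonged to it. Map2, which encodes a dendritic microtubule-associated protein, had 103 FPKM in brain, 32.6 FPKM in testis and 0.214 FPKM in liver. Tubb3, the neuronal beta-tubulin, had 73.3 FPKM in brain, 6.31 FPKM in testis and 0.0111 FPKM in liver. All 15 markers were 4-fold or more higher in brain than in liver, but only those 2 were so in testis, where Snap25 had 0.0864 FPKM against 933 FPKM in brain. Over all loci, 9.03% were 4-fold or more higher in brain than in liver and 17.4% were so in testis.

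Of 15 spermatid markers (14 marked OK), Prm2 and Tnp1 were in the set, and of 14 spermatocyte markers (13 marked OK) none was. Prm2, a protamine that packs sperm chromatin, had 9.56 FPKM in brain, 12924 FPKM in testis and 0.150 FPKM in liver. Tnp1, the transition protein that comes before the protamines, had 13.5 FPKM in brain, 14339 FPKM in testis and 0.0586 FPKM in liver. Their brain levels were 0.0739% and 0.0940% of their testis levels. Across the 15 spermatid markers the brain level was a median 0.0653% of the testis level, with a range of 0.00590% to 0.272%, and none of the 15 was listed at 0 in brain. Their summed level was 31.98 FPKM in brain, 44435 FPKM in testis and 0.300 FPKM in liver. The part that a small amount of testis RNA in the brain library has in the levels of Prm2 and Tnp1 was not tested. When each library was lowered by 0.1% of the highest of the other libraries, 667 of the 674 remained and 7 were lost, namely Prm2, Tnp1, Rsph1, Fank1, Lrrc17, Tspan13 and 1700001L19Rik.

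**Figure D1:**
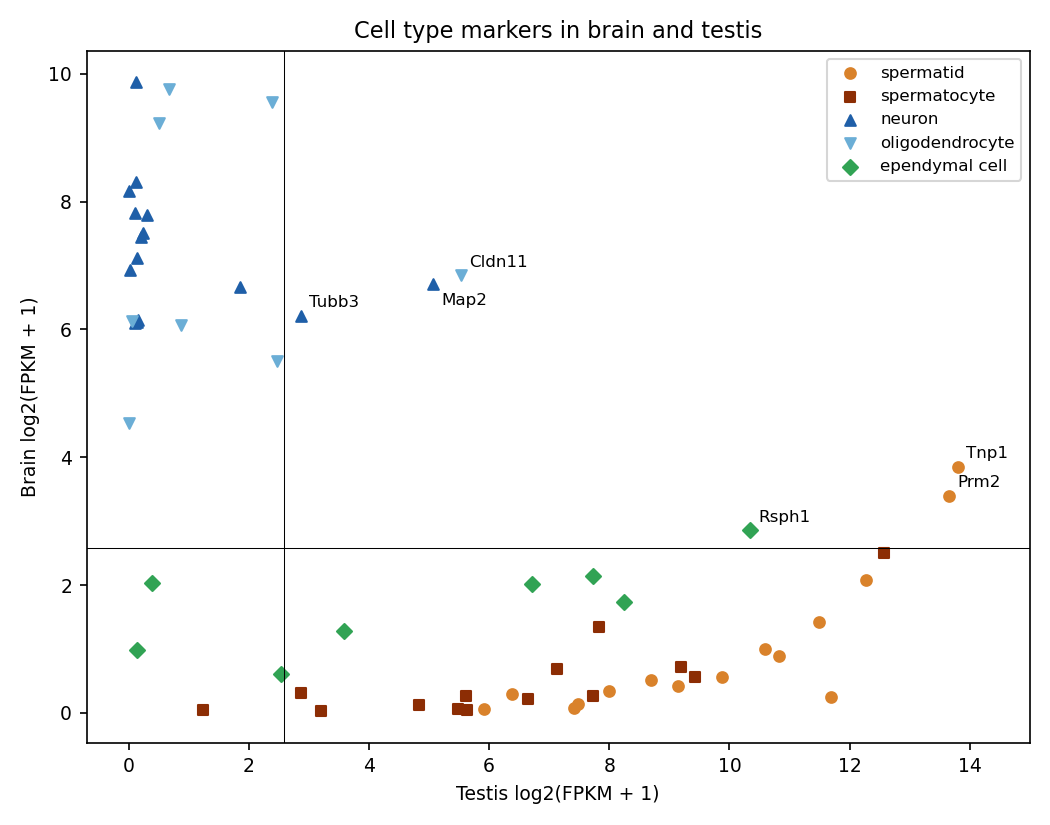
Markers of 5 cell types in brain (vertical) and testis (horizontal), both as log2(FPKM + 1), with lines at 5 FPKM and 1 point per gene. Most neuronal and oligodendrocyte markers lie along the left edge and most germ cell markers along the bottom, and the named genes in the upper right belong to the shared set.

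Of the other lists, those of oligodendrocytes, Sertoli cells, astrocytes and ependymal cells gave 1 member each, of 4, 6, 6 and 8 tested markers. The share over all loci was 2.27%. Cldn11, the claudin of myelin and of the junctions between Sertoli cells, was on both the oligodendrocyte and the Sertoli cell list and had 114 FPKM in brain, 45.01 FPKM in testis and 0.00375 FPKM in liver. The astrocyte list gave Gja1, a gap junction connexin, with 66.1, 13.3 and 1.08 FPKM in brain, testis and liver. The ependymal list gave the radial spoke gene Rsph1, which is described below with the axoneme. No marker of microglia, spermatogonia, Leydig cells, hepatocytes, Kupffer cells or erythroid cells was in the set. For hepatocytes and Kupffer cells this follows from the rule, which asks for a low level in liver. The tissues carried their own defining markers, with hepatocyte markers at 70.1 to 20975 FPKM in liver, neuronal markers at 67.95 to 933 FPKM in brain and spermatid markers at 59.5 to 14339 FPKM in testis.

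Within the set, testis was the higher tissue for 409 genes and brain for 265. The median of brain minus testis was -0.33 on the log2 scale, but this sign depended on the scaling of the libraries: it was 0.36 after scaling to the protein-coding sum, with brain the higher tissue for 400 genes, and 0.20 after scaling to the FPKM sum over loci of 200 bp or more, with brain higher for 371. Levels within 2-fold of each other were found for 316 of the 674 (46.9%), beside 55.8% of the 5660 genes. A further 62 genes (9.20%) were 4-fold or more higher in brain than in testis and 127 (18.8%) were 4-fold or more higher in testis than in brain, beside 6.64% and 11.3% of the 5660. This order turned as well, to 105 and 79 genes with the protein-coding sum and to 94 and 85 with the FPKM sum. The set therefore joined evenly shared genes with genes that were mostly of 1 tissue and above 5 FPKM in the other.

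**Figure D2:**
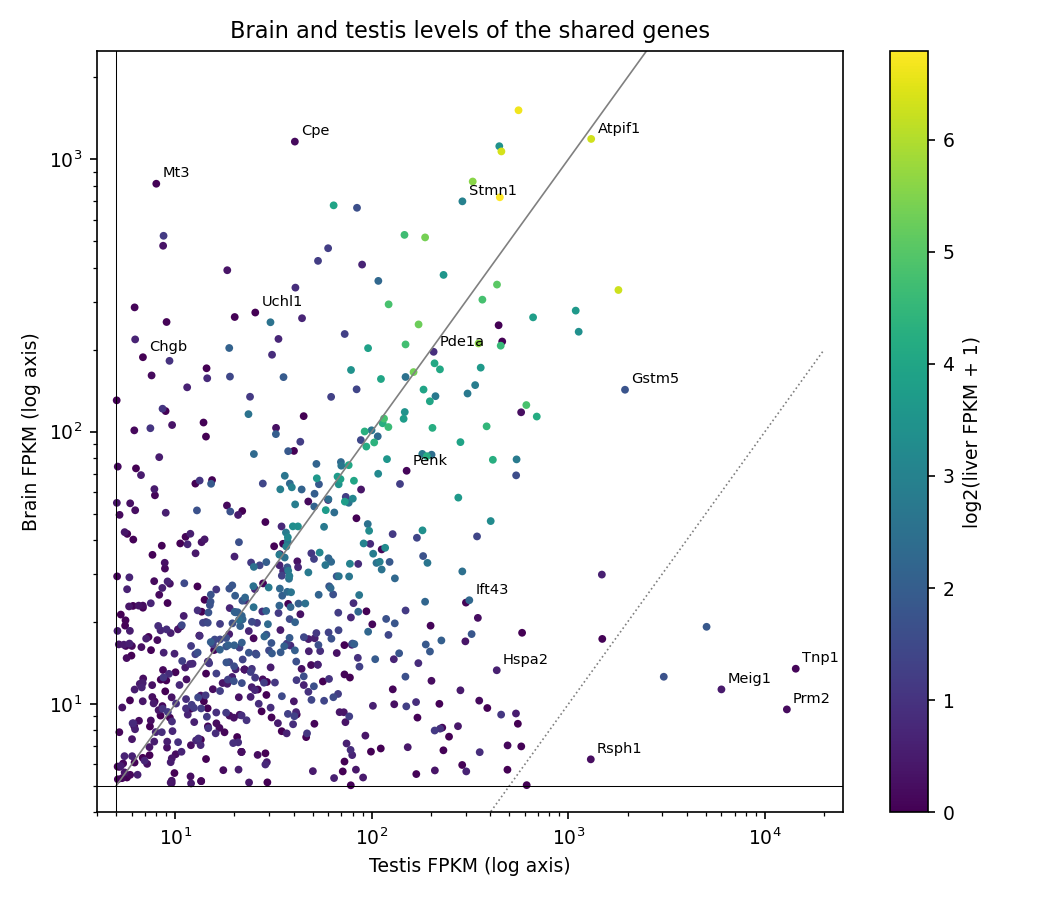
Levels of the 674 shared genes in brain (vertical) and testis (horizontal), on log axes, with the colour giving log2(FPKM + 1) in liver. The solid line marks equal levels, the dotted line marks brain at 1% of testis, and 7 genes, Prm2, Tnp1 and Meig1 among them, lie below it.

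The genes furthest above liver were of several kinds. The pseudogene Fabp3-ps1 had 246 FPKM in brain and 442 FPKM in testis and was listed at 0 in liver. Its source gene Fabp3, which encodes the heart-type fatty acid binding protein, had 48.1 FPKM in brain, 83.5 FPKM in testis and 0.00722 FPKM in liver. How reads were divided between these near-identical copies is not given in the sources used here, so both values are uncertain. Phyhipl had 214 FPKM in brain and 461 FPKM in testis and was also listed at 0 in liver. Among genes with a value in liver, Pde1a had the largest difference, 6.71 on the log2(FPKM + 1) scale. Pde1a encodes a calmodulin-dependent cyclic nucleotide phosphodiesterase, and its levels were 196 FPKM in brain, 206 FPKM in testis and 0.887 FPKM in liver. Its deposited intervals were wide, 156 to 237 FPKM in brain, 175 to 237 FPKM in testis and 0 to 2.06 FPKM in liver.

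Next came Ccdc92, which encodes a coiled-coil protein, with 118 FPKM in brain, 575 FPKM in testis and 0.201 FPKM in liver. Penk, the precursor of the enkephalin opioid peptides, had 71.8 FPKM in brain, 150.3 FPKM in testis and 0.0746 FPKM in liver, so a neuropeptide precursor was higher in testis than in brain. Ptgds, the lipocalin-type prostaglandin D synthase, lay the other way, with 410.3 FPKM in brain, 89.2 FPKM in testis and 0.591 FPKM in liver. Gstm5, a mu-class glutathione S-transferase, had 142 FPKM in brain, 1941 FPKM in testis and 2.40 FPKM in liver. Mllt11 had 61.3, 88.2 and 0.315 FPKM in brain, testis and liver. These genes did not come from 1 pathway, and their brain and testis levels ran in either order.

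By the lower of the brain and testis levels, the most abundant protein-coding gene of the set was Atpif1, which encodes the inhibitor of the mitochondrial ATP synthase, at 1186 FPKM in brain, 1306 FPKM in testis and 77.2 FPKM in liver. Ywhaz, the zeta form of the 14-3-3 adaptor proteins, followed at 725 FPKM in brain, 448 FPKM in testis and 109.8 FPKM in liver. Actg1, the cytoplasmic gamma-actin, had 305 FPKM in brain, 365 FPKM in testis and 26.8 FPKM in liver. Of these, liver kept a level above 20 FPKM for each, so the difference was one of amount. Stmn1, which encodes the tubulin-sequestering protein stathmin, had 700.1 FPKM in brain, 289 FPKM in testis and 6.74 FPKM in liver.

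Genes of ciliary transport had the largest share of the 20 lists under the deposited values, whereas after median-ratio scaling they had 23.5%, next to 25% of the tubulin-modifying enzymes. Of 34 tested genes listed with intraflagellar transport and the Bardet-Biedl complex, which carries membrane cargo in cilia, 13 were in the set (38.2%). The shares were 2.27% over all loci and 3.19% over protein-coding loci. The list also held genes of neither complex, such as Arl3, Arl6, Arl13b and Tulp3, and Arl3 and Arl6 were among the 13. The median difference over the 34 was 1.72, beside 0 over all loci. The limit was set by brain: 28 of the 34 were 4-fold or more higher in testis than in liver and 14 were so in brain, or 8 to 21 in brain across the scalings. Testis was the higher of brain and testis for 12 of the 13, and for 11 after scaling to the protein-coding sum. The count depended on the scaling and was 8 after median-ratio scaling and 18 after scaling to the protein-coding sum.

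All 3 subunits of the outward motor of this transport passed the rule under the deposited values, Kif3b at 2.08 on the log2 scale, close to the limit of 2. Heterotrimeric kinesin-2, which walks outward along the axoneme, has the motor subunits Kif3a and Kif3b and the adaptor Kifap3. Kif3a had 91.8 FPKM in brain, 43.3 FPKM in testis and 1.35 FPKM in liver. Kif3b had 10.4 FPKM in brain, 49.3 FPKM in testis and 1.68 FPKM in liver, and its difference was 1.53 after median-ratio scaling, below the limit. Kifap3 had 57.6 FPKM in brain, 73.7 FPKM in testis and 1.36 FPKM in liver. The 3 subunits were thus all above 10 FPKM in both organs and below 2 FPKM in liver, and Kif3a was the highest of the 3 in brain and the lowest of the 3 in testis. Of 9 genes of cytoplasmic dynein-2, the motor of the return path, 3 were in the set, of which the light chain Dynll1 also serves other complexes and had 172 FPKM in brain, 358 FPKM in testis and 11.5 FPKM in liver.

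The transport complexes themselves were split. In complex B, 3 of 12 core genes and 2 of 6 peripheral genes were in the set. Ift57 had the largest difference of these, 4.80, with 64.2 FPKM in brain, 139 FPKM in testis and 1.35 FPKM in liver. Ift74 and Ift81, whose products form the tubulin-binding pair of the complex, had 16.5 and 14.8 FPKM in brain, 188 and 84.9 FPKM in testis, and 2.63 and 0.962 FPKM in liver. Outside the set, Ift20 was about level in liver and brain, with 207 FPKM in brain, 306 FPKM in testis and 213 FPKM in liver. Ift46 was also well expressed in liver, with 144 FPKM in brain, 649.9 FPKM in testis and 90.4 FPKM in liver. In complex A, 2 of 6 genes were in the set, Ift43 and Wdr35. Ift43 had 24.04 FPKM in brain, 313 FPKM in testis and 3.85 FPKM in liver.

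Of 8 genes of the BBSome, the cargo coat mutated in Bardet-Biedl syndrome, 4 were in the set. Bbs5 had 20.5 FPKM in brain, 118 FPKM in testis and 2.28 FPKM in liver. Bbs4 was higher in brain than in testis, with 18.6 FPKM in brain, 8.42 FPKM in testis and 0.673 FPKM in liver. Arl6, the small GTPase that recruits the BBSome to membranes, had 21.6 FPKM in brain, 33.5 FPKM in testis and 1.28 FPKM in liver. A related GTPase cycle, in which ARL3 releases lipid-modified cargo from carrier proteins inside the cilium, gave 5 of 8 genes: Arl3, Arl2, Arl2bp, Unc119 and Pde6d. Arl3 had 207 FPKM in brain, 453 FPKM in testis and 22.7 FPKM in liver. Its activator Arl13b was not in the set, with 1.57 FPKM in brain, 19.7 FPKM in testis and 1.39 FPKM in liver. Also outside it were Rp2, with 2.33 FPKM in brain, 43.6 FPKM in testis and 2.69 FPKM in liver, and Unc119b, with 4.69, 2.81 and 4.05 FPKM in the same order. Arl3 and 4 other genes of this group were therefore shared by brain and testis, whereas Arl13b and Rp2 were high in testis alone.

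At the transition zone, the gate at the base of the cilium, 6 of 20 genes were in the set. Ahi1, which is mutated in Joubert syndrome, was the most evenly shared of the 6 with the largest difference to liver, 5.35, and had 56.1 FPKM in brain, 59.9 FPKM in testis and 0.401 FPKM in liver. Tctn2, of the tectonic complex at this gate, was higher in testis than in brain, with 8.58 FPKM in brain, 73.4 FPKM in testis and 0.279 FPKM in liver. The complexes in these paragraphs were put together after the values had been seen, so their counts carry no weight beyond the genes themselves.

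**Figure D3:**
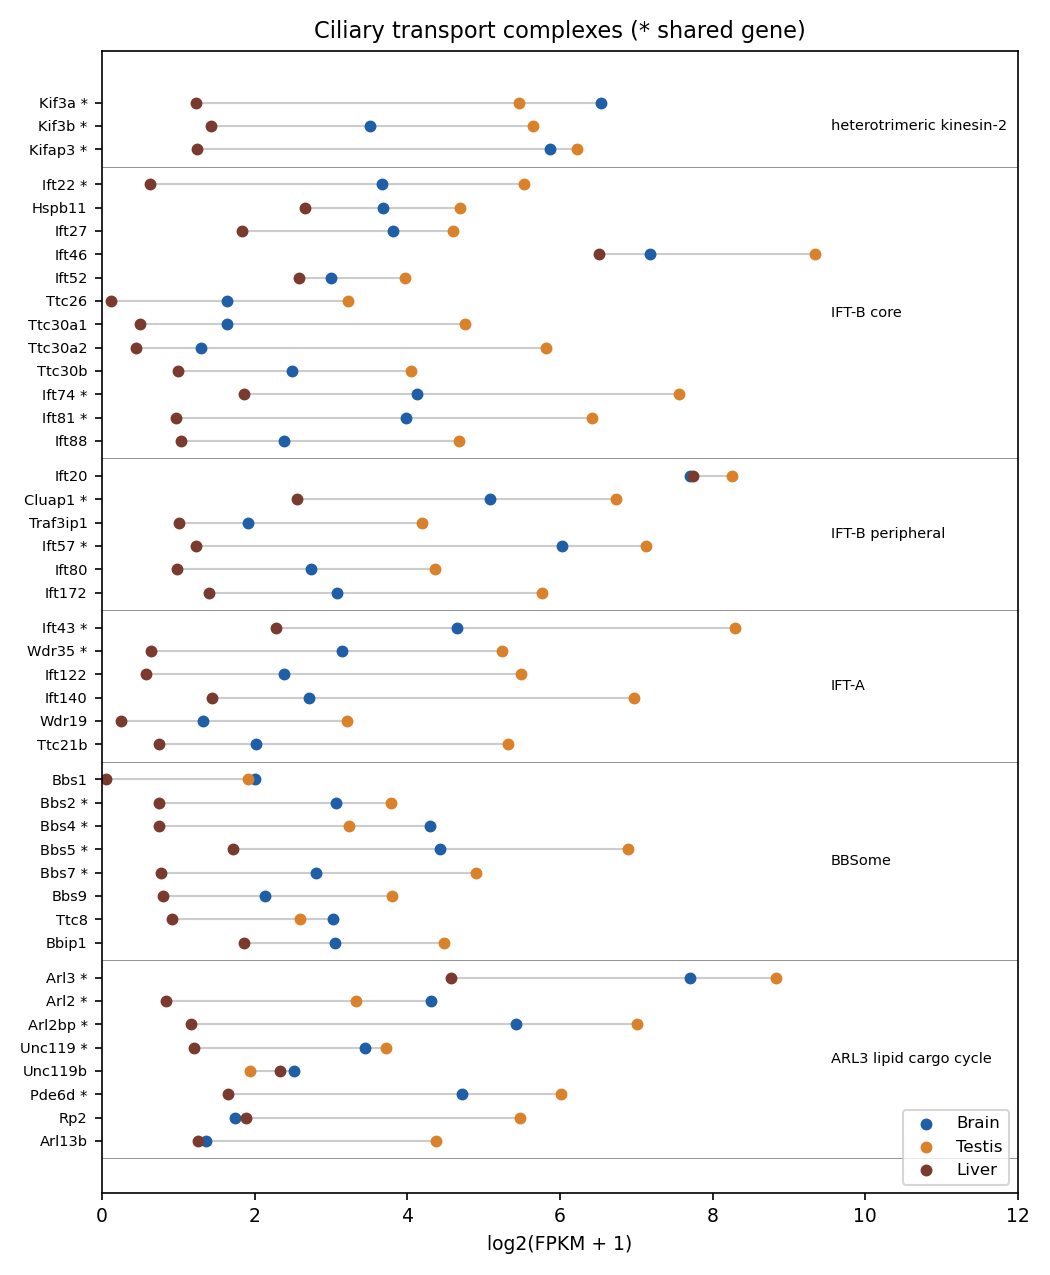
Levels of ciliary transport genes in the brain, testis and liver libraries as log2(FPKM + 1), 1 row per gene grouped by complex, with genes of the shared set marked by a star. Testis is the highest point in most rows, and the 3 kinesin-2 rows have brain and testis both well right of liver.

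Genes listed with the axoneme, the moving core of flagella and motile cilia, were mostly high in testis alone. The list also held genes outside the axoneme itself, such as the transcription factor genes Foxj1, Rfx2 and Rfx3. Of its 48 tested genes 44 were 4-fold or more higher in testis than in liver, but 10 were so in brain. In the set were 7 (14.6%), or 12 (25%) after scaling to the protein-coding sum. The 7 were each higher in testis than in brain under each scaling tried. Meig1, which is needed to build the sperm flagellum, had 11.3 FPKM in brain, 6004 FPKM in testis and 0.368 FPKM in liver. Rsph1, a radial spoke head gene, had 6.27 FPKM in brain, 1299.9 FPKM in testis and 0.159 FPKM in liver, so its brain level was 0.482% of its testis level. Rsph9, of the same spoke head, had 14.1 FPKM in brain, 172 FPKM in testis and 0.793 FPKM in liver, which put brain at 8.19% of testis. The shares of Rsph1 and Rsph9 lay above the spermatid markers' range of 0.00590% to 0.272%, and that of Meig1, 0.188%, lay within it. The 14 spermatocyte markers ran from 0.0577% to 3.88%, a range that held Rsph1 and Meig1 but not Rsph9. Rsph1 was also lost from the set when each library was lowered by 0.1% of the highest of the others. The part that testis RNA in the brain library has in these levels was not tested.

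The short sequence that RFX transcription factors bind, the X-box, is known from the promoters of ciliary genes. In RefSeq promoters of build GRCm38.p6, which run from 250 bases before to 50 bases after the gene start, 471 of the 593 protein-coding genes of the set were matched by symbol. The X-box core, GTTGCC followed by any 2 bases and GGNAAC, on either strand, was present in 6 of these 471 (1.27%), beside 0.371% of 3500 promoters of genes at 5 FPKM or more in both tissues and 0.296% of 14176 promoters of all loci tested. The 60-base windows that hold it are shown because the 6 genes include the ciliary genes Ahi1, Bbs7 and Cep19, with the core in capitals, 5′ to 3′ on the strand of the gene.
Ahi1: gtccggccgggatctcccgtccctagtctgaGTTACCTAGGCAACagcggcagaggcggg
Bbs7: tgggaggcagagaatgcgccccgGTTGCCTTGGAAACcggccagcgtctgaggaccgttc
Cep19: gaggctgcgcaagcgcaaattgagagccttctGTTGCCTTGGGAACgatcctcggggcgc
Morn4: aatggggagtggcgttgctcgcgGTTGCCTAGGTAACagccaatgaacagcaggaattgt
1500011B03Rik: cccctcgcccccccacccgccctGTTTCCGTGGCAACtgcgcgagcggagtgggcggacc
Zdhhc1: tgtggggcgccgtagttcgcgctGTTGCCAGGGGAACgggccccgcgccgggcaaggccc

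The window of Ahi1 lies at chr10:20952537-20952596 on the + strand, with the core 21 bases downstream of the start. The window of Bbs7 lies at chr3:36613474-36613533 on the - strand, with the core 121 bases upstream of the start. That of Cep19 lies at chr16:32099779-32099838 on the + strand, with the core 22 bases downstream of the start. That of Morn4 lies at chr19:42086362-42086421 on the - strand, with the core 28 bases upstream of the start. That of 1500011B03Rik lies at chr5:114813993-114814052 on the - strand, with the core 53 bases upstream of the start. That of Zdhhc1 lies at chr8:105497056-105497115 on the - strand, with the core 30 bases upstream of the start. In 5 of these the core lies near the start, and Bbs7 has it furthest upstream. Cep19, which encodes a centriolar protein that works with ciliary transport, had 53.1 FPKM in brain, 50.97 FPKM in testis and 3.37 FPKM in liver. Morn4 had 13.9 FPKM in brain, 49.1 FPKM in testis and 0.134 FPKM in liver. A match of letters is not a binding site, and a missing match says only that these letters are absent from the window.

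The cyclic AMP response element is known as the binding sequence of CREB in neurons and of CREM in spermatids. Its share in the set lay below that of all genes at 5 FPKM or more in both tissues, which include the set. It lay above the share over all loci tested. The palindrome of this element, TGACGTCA, was present in 17 of the 471 promoters (3.61%), beside 4.29% of the 3500 and 2.55% of the 14176. Among these were the transport gene Ift57, the motor gene Kif5c, the granin Chgb and Spata7, and their windows are shown with the palindrome in capitals for comparison with the X-box windows.
Ift57: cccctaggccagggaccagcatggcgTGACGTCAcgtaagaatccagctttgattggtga
Kif5c: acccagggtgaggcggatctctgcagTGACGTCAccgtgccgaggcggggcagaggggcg
Chgb: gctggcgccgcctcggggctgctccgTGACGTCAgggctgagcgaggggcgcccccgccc
Spata7: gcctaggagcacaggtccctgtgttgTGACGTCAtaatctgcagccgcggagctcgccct

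That of Ift57 lies at chr16:49699106-49699165 on the + strand, with the palindrome 162 bases upstream of the start. That of Kif5c lies at chr2:49619234-49619293 on the + strand, with the palindrome 26 bases upstream of the start. That of Chgb lies at chr2:132781544-132781603 on the + strand, with the palindrome 72 bases upstream of the start. That of Spata7 lies at chr12:98628109-98628168 on the + strand, with the palindrome 7 bases upstream of the start. The 4 genes ranged from brain-weighted to testis-weighted. Chgb had 187 FPKM in brain, 6.85 FPKM in testis and 0.00970 FPKM in liver, and Spata7, a ciliary gene of the retina and testis, had 11.2 FPKM in brain, 282 FPKM in testis and 0.371 FPKM in liver.

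Other motifs were searched on both strands in the same promoters. CCGGAAG, the ETS core, was in 13.6% of the set's promoters, beside 24.4% of the 3500 and 13.0% of the 14176. The NRF1 site, GCGCAT followed by GCGC, was in 1.27%, 2.83% and 1.47%, and the YY1 site, AAGATG followed by GCGGC, was in 1.27%, 2.46% and 1.13%, in the same order. These 3 motifs of broadly active promoters were thus less frequent in the set than among the 3500, by description only. The GC box GGGCGG was in 65.8%, 68.8% and 50.2%, the TATA box letters TATAAA in 6.79%, 6.54% and 12.2%, and CCAAT in 39.7%, 40.4% and 38.8%. The E-box CACGTG was in 8.92%, 11.6% and 8.55%, the MYB sequence AACNGTT in 4.25%, 2.74% and 3.75%, and the variant cyclic AMP element TGACGCAA in 1.06%, 1.14% and 0.727%. A shortened X-box, GTTGCC followed by ATGG, which can overlap the core, was in 1.06%, 0.543% and 0.430%. The left part of the REST element, TTCAGCACC, was in 0.212%, 0.314% and 0.374%, and the HNF4A letters CAAAGTCCA were in 0.425%, 0.457% and 0.494%. The median GC content was 62.7% in the set's promoters, 61.3% in the 3500 and 57.7% in the 14176.

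Microtubule genes beyond the cilium were also frequent. Of 36 motors and adaptors 10 were in the set (27.8%), or 6 (16.7%) after median-ratio scaling, of 34 tubulins and microtubule-associated proteins 6 (17.6%), and of 16 enzymes that add or remove glutamate and tyrosine on tubulin 4 (25%). Kif5c, a kinesin-1 heavy chain of neurons, had 108 FPKM in brain, 13.9 FPKM in testis and 0.0208 FPKM in liver. Its paralogs were outside the set, Kif5a at 191 FPKM in brain, 0.643 FPKM in testis and 0.0510 FPKM in liver, and Kif5b at 40.6 FPKM in brain, 5.47 FPKM in testis and 8.03 FPKM in liver. Kif5c was thus the highest of these 3 kinesin-1 heavy chains in testis. Klc2, a kinesin light chain, had 64.5 FPKM in brain, 27.9 FPKM in testis and 1.69 FPKM in liver, and Kif2a, a microtubule depolymerase, had 23.7 FPKM in brain, 187 FPKM in testis and 3.61 FPKM in liver.

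The 4 tubulin-modifying enzymes of the set were close to evenly shared. Agtpbp1, a deglutamylase whose loss in mice causes Purkinje cell degeneration and male sterility, had 45.8 FPKM in brain, 95.4 FPKM in testis and 4.86 FPKM in liver. Ttll7, a glutamylase, had 33.4 FPKM in brain, 41.8 FPKM in testis and 0.265 FPKM in liver. Ttll1 had 19.7 FPKM in brain, 16.9 FPKM in testis and 1.29 FPKM in liver. Brain and testis differed by little more than 2-fold at most for these 3 genes. Mapre3, which encodes a microtubule plus-end protein, was evenly shared as well, at 118 FPKM in brain, 147 FPKM in testis and 10.2 FPKM in liver.

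Calcium and cyclic AMP signalling gave 8 of 50 genes (16%), or 5 after median-ratio scaling, among them Calm2 and Calm3, which encode the calcium sensor calmodulin. Calm2 had 828 FPKM in brain, 326 FPKM in testis and 46.6 FPKM in liver. Calm3 had 376 FPKM in brain, 232 FPKM in testis and 10.8 FPKM in liver. Both ran in the order brain, testis, liver, and Calm3 had the lower liver level. Calmodulin's targets were divided: Ppp3ca, the alpha catalytic subunit of calcineurin, had 252 FPKM in brain, 30.5 FPKM in testis and 5.04 FPKM in liver, whereas the gamma subunit Ppp3cc had 6.49 FPKM in brain, 79.5 FPKM in testis and 0.586 FPKM in liver. Camk4, a calmodulin-dependent kinase, had 7.95 FPKM in brain, 34.8 FPKM in testis and 0.00152 FPKM in liver.

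Most genes of synaptic machinery were 4-fold or more higher than liver in brain but not in testis. Of 35 genes of vesicle fusion 30 were so in brain and 4 in testis. In the set were 3 of them (8.57%), or 1 after median-ratio scaling, beside 2.27% of all loci and 3.19% of protein-coding loci. Of 28 genes of glutamate, GABA and acetylcholine signalling 21 were 4-fold or more higher than liver in brain and 1 was so in testis. Grik5 was the 1 gene of these in the set (3.57%), near the share of protein-coding loci. Syt11, a member of the synaptotagmin family, was higher in brain than in testis, with 157 FPKM in brain, 14.5 FPKM in testis and 0.757 FPKM in liver. Vamp4, a vesicle fusion protein of the Golgi and endosomes, was evenly shared at 44.9 FPKM in brain, 39.7 FPKM in testis and 9.12 FPKM in liver. Of 31 genes listed with neuropeptides and prohormone processing, 4 were in the set (12.9%), namely Penk and Chgb above, Cpe and Gpi1. Gpi1 is an enzyme of glycolysis and was counted with the glucose genes as well, so this share overstates the neuropeptide genes. Cpe, the carboxypeptidase that trims prohormones, had 1159.9 FPKM in brain, 40.6 FPKM in testis and 0.134 FPKM in liver. Of 26 known targets of REST, the factor that represses neuronal genes in other cells, 24 were 4-fold or more higher in brain than in liver, 7 were so in testis and 5 were in the set (19.2%), or 3 after median-ratio scaling.

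Glucose metabolism gave 7 of 23 genes (30.4%), with 5 of them higher in brain than in testis, or 6 after scaling to the protein-coding sum or the FPKM sum. Slc2a3, the high-affinity glucose transporter of neurons and sperm, had 19.4 FPKM in brain, 199 FPKM in testis and 0.0677 FPKM in liver. Pkm, a pyruvate kinase, had 357 FPKM in brain, 108 FPKM in testis and 3.83 FPKM in liver. Pfkp and Pfkm, which encode phosphofructokinases, were both in the set, and Pfkp had 143 FPKM in brain, 83.7 FPKM in testis and 1.61 FPKM in liver. The liver-type Pfkl was outside it, and was higher in brain than in liver, with 24.4 FPKM in brain, 2.99 FPKM in testis and 4.79 FPKM in liver. Hk1, the hexokinase of brain, would have passed the levels with 71.6 FPKM in brain, 1503 FPKM in testis and 0.530 FPKM in liver, but its estimate was not marked OK in every table.

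Paralogs were compared in 20 pairs, each a gene and a paralog listed as its liver form. The listed paralog was highest in liver in 13 of the 20, highest in brain in 5 and highest in testis in 2. Tuba1c, an alpha-tubulin gene, was among those highest in brain, with 217 FPKM in brain, 40.6 FPKM in testis and 26.7 FPKM in liver, as was Pfkl above. Of the other genes of the pairs 5 were in the set, namely Aldoa, Pkm, Pfkp, Slc2a3 and Cpt1c. In 13 pairs this gene was higher than the listed paralog in brain and in testis and lower than it in liver. Aldoa, an enzyme of glycolysis, had 527 FPKM in brain, 147 FPKM in testis and 24.7 FPKM in liver. Cpt1c, a carnitine palmitoyltransferase relative of brain, had 12.9 FPKM in brain, 14.3 FPKM in testis and 0.0337 FPKM in liver, and its listed paralog Cpt1a had 2.72 FPKM in brain, 2.89 FPKM in testis and 18.5 FPKM in liver. The serine synthesis genes Phgdh and Psat1 were in the set too, with Phgdh at 31.4 FPKM in brain, 8.86 FPKM in testis and 0.131 FPKM in liver.

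**Figure D4:**
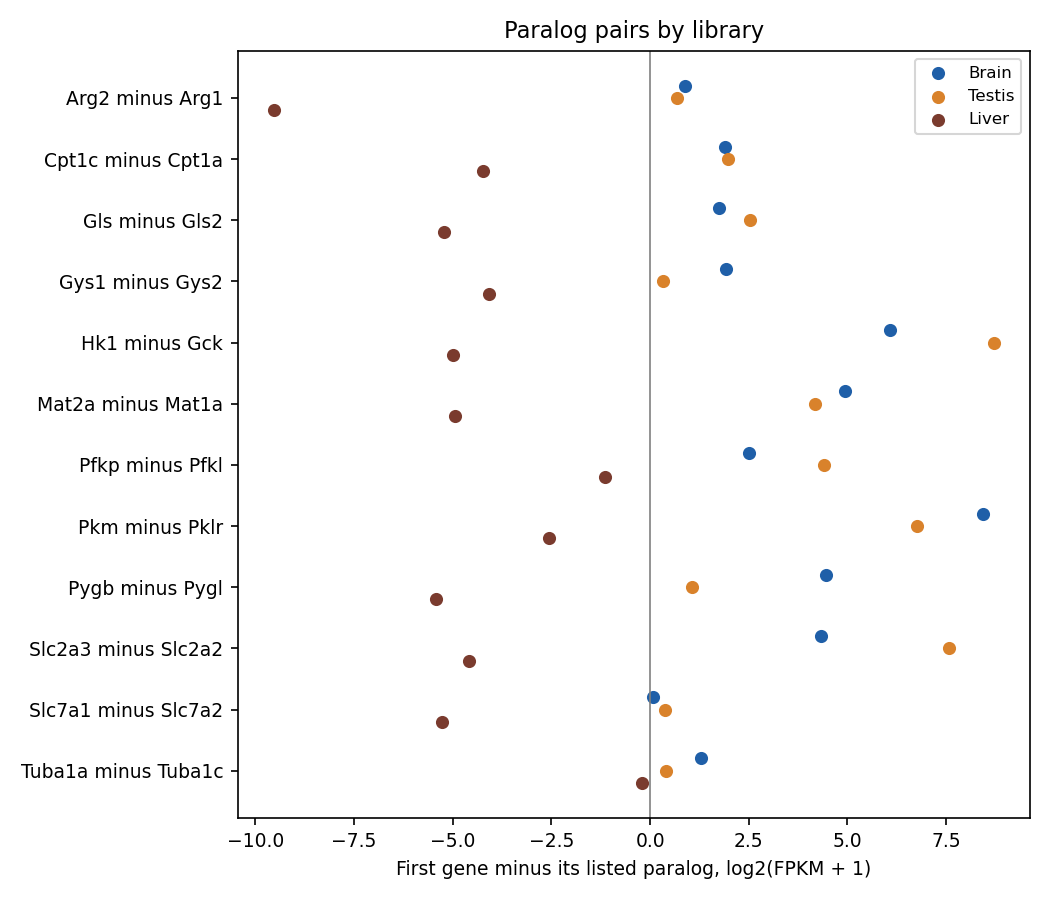
Level of a gene minus that of its listed paralog on the log2(FPKM + 1) scale in the brain, testis and liver libraries, for 12 of the 13 pairs in which the sign in brain and testis was opposite to that in liver. Brain and testis points lie right of 0 and liver points left of it, as the choice of these pairs requires, and the brain point of Slc7a1 and the liver point of Tuba1a lie closest to 0.

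RNA-binding proteins gave 7 of 43 genes (16.3%), or 3 (6.98%) after median-ratio scaling. Ptbp2, a splicing regulator of neurons and spermatogenic cells, had 20.04 FPKM in brain, 24.5 FPKM in testis and 1.88 FPKM in liver. Khdrbs3, a splicing factor of the STAR family, had 64.5 FPKM in brain, 38.3 FPKM in testis and 3.87 FPKM in liver. Celf3 and Celf6, of a family of splicing and translation regulators, were listed at 0 in liver and had 5.89 and 6.49 FPKM in brain and 5.09 and 7.40 FPKM in testis. For each of these 4 genes brain and testis were within 2-fold of each other. Among 53 chromatin genes 3 were in the set, or 7 after scaling to the protein-coding sum, led by Chd5, a chromatin remodeller known from neurons and spermatids, with 10.8 FPKM in brain and 29.1 FPKM in testis and a listing at 0 in liver.

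Protein turnover gave 7 of 59 ubiquitin genes (11.9%), or 12 after scaling to the protein-coding sum, and their weight differed by gene. Uchl1, a ubiquitin hydrolase of neurons and spermatogonia, had 274 FPKM in brain, 25.5 FPKM in testis and 0.0131 FPKM in liver. Trim37, a ubiquitin ligase, had 79.1 FPKM in brain, 545 FPKM in testis and 5.92 FPKM in liver. Fbxo44, a substrate receptor of ubiquitin ligases, was evenly shared at 44.9 FPKM in brain, 34.7 FPKM in testis and 0.691 FPKM in liver. Chaperones gave 3 of 47 genes, or 7 after the same scaling, among them Hspa2, the Hsp70 of meiotic cells, at 13.3 FPKM in brain, 432 FPKM in testis and 0.512 FPKM in liver. Of 33 cell adhesion molecules 4 were in the set, among them Jam3, a junctional adhesion molecule needed for spermatid polarity, at 12.3 FPKM in brain, 11.4 FPKM in testis and 0.222 FPKM in liver.

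Lower shares were found among 42 ion pumps and channels with 3 genes (7.14%), 37 autophagy and endosomal sorting genes with 3 (8.11%) and 36 cell cycle and centrosome genes with 2 (5.56%). The lowest was among 30 genes of 14-3-3 proteins and synaptic scaffolds, with 1 (3.33%), which is near the share of all protein-coding loci. These 4 counts were 3, 1, 1 and 0 after median-ratio scaling, and 6, 4, 4 and 3 after scaling to the protein-coding sum. Atp1b2, which encodes a beta subunit of the sodium pump, had 101 FPKM in brain, 6.19 FPKM in testis and 0.108 FPKM in liver. Cacnb1, a calcium channel beta subunit, had 15.8 FPKM in brain, 15.8 FPKM in testis and 0.0708 FPKM in liver. In all, 97 of the 674 were on any of the 20 lists, and 548 with a symbol were on none.

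**Figure D5:**
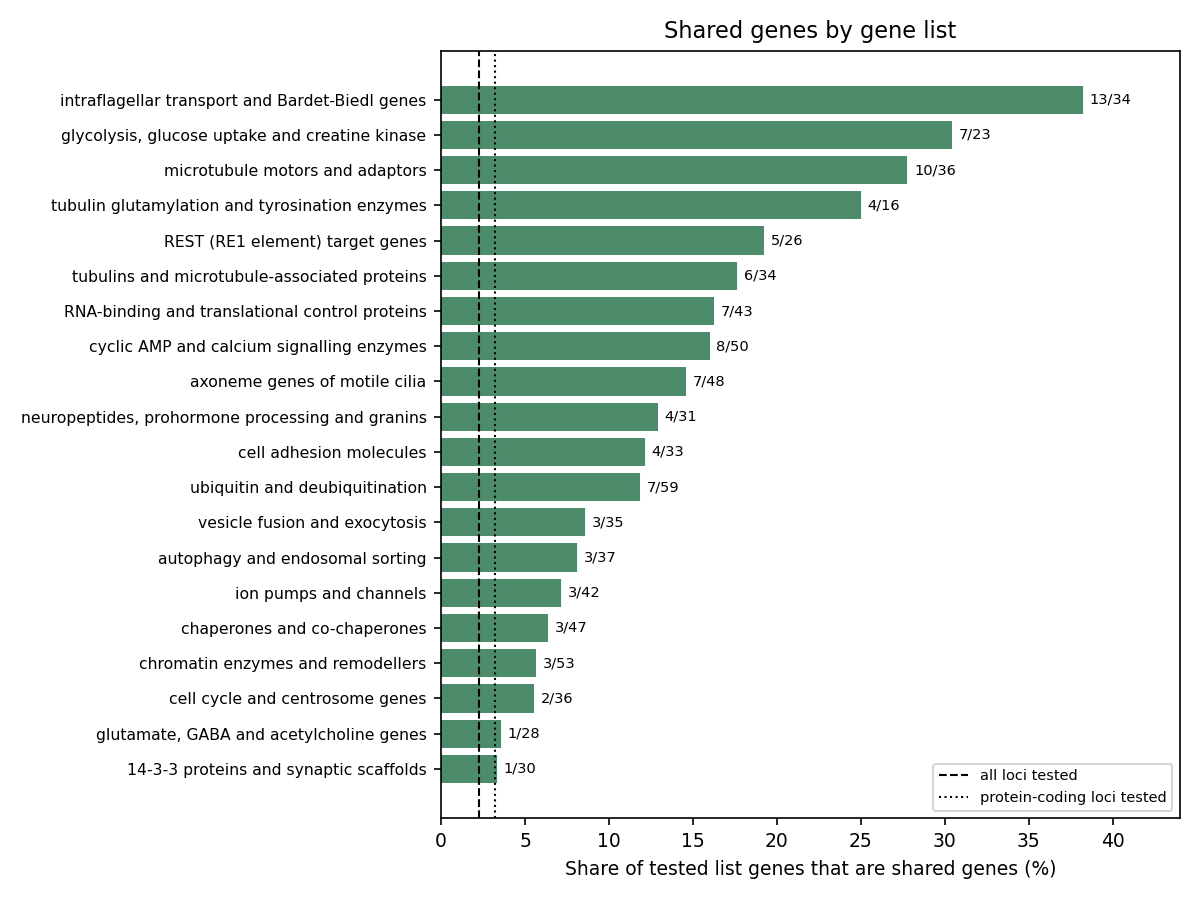
Share of the tested genes of each of 20 lists that belong to the shared set, with the counts at the bar ends, the dashed line at 2.27% of all loci tested and the dotted line at 3.19% of protein-coding loci. Intraflagellar transport and Bardet-Biedl genes have the longest bar at 38.2%, and glutamate, GABA and acetylcholine genes lie near the lines.

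At the ends of the set stood genes mostly of 1 organ. Mt3, the brain metallothionein, had the largest excess of brain over testis, 6.50, with 812 FPKM in brain, 8.01 FPKM in testis and 0.0372 FPKM in liver. Its relatives Mt1 and Mt2, which bind zinc in most tissues, were in the set with even levels, Mt1 at 135 FPKM in brain, 211 FPKM in testis and 5.70 FPKM in liver, and Mt2 at 159 FPKM in brain, 148 FPKM in testis and 4.87 FPKM in liver. Sparcl1, a secreted matrix protein of astrocytes, had 523 FPKM in brain, 8.72 FPKM in testis and 1.25 FPKM in liver. Meg3, an imprinted long noncoding RNA, had 481 FPKM in brain, 8.68 FPKM in testis and 0.293 FPKM in liver. On the testis side after Prm2, Tnp1 and Meig1 came Spa17, a sperm protein, at 19.2 FPKM in brain, 5045 FPKM in testis and 2.60 FPKM in liver. Odf2, of the outer dense fibres of the flagellum and of centriole appendages, had 12.6 FPKM in brain, 3056 FPKM in testis and 2.26 FPKM in liver. Dkkl1, an acrosomal protein gene, had 17.3 FPKM in brain, 1487 FPKM in testis and 0.0265 FPKM in liver.

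By class, 593 of the 674 were protein coding, 40 were pseudogenes, 6 were long noncoding RNAs, 6 were small RNAs or other, and 29 had no match in the annotation used. Protein-coding genes made up 88.0% of the set, beside 77.3% of the 5660 genes and 62.6% of all loci. Pseudogenes share reads with their source genes, so their levels are uncertain, and 5 of the most abundant were Gm7308, Gm15720, Gm11223, Gm12715 and Gm1848. Gm11223 had 1116 FPKM in brain, 445 FPKM in testis and 10.05 FPKM in liver. Protein-coding genes of the set spanned a median of 25.04 kb of genome, beside 19.6 kb for those of the 5660 and 16.3 kb for all. Chromosome X held 18 of the 674 (2.67%), beside 3.48% of the 5660 and 7.14% of all loci.

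Chromosome 4 held 68 of the 674 (10.1%), beside 7.70% of the 5660, and 21 of the 68 lay in 1 stretch. In the mm9 coordinates of the tables, chr4:41755956-42669537 held 53 tested loci, of which 21 were in the set and 13 of these had no symbol. Levels there ran over 5.21 to 148 FPKM in brain, 9.08 to 336 FPKM in testis and 0.0939 to 6.26 FPKM in liver. Their values repeated between loci, and across the set 9 identifiers had the same 3 values as another and fell into 4 groups, so how reads were divided among these copies is uncertain. With the whole stretch counted as 1 gene, although levels within it differed, and identifiers with the same 3 values counted once, the set held 653 genes. Outside the stretch chromosome 4 held 7.20% of the set. The 7.70% of the 5660 includes loci of the stretch, so these shares are not directly comparable.

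The limits of the rule passed through a dense range of values. Just inside the 4-fold limit, Zmat5 had 15.8 FPKM in brain, 16.9 FPKM in testis and 3.20 FPKM in liver, and just outside it Drap1 had 128 FPKM in brain, 269.8 FPKM in testis and 31.3 FPKM in liver. Just inside the 5 FPKM limit, Lrrc17 had 130.2 FPKM in brain, 5.04 FPKM in testis and 0.0256 FPKM in liver, and just outside it Lpcat4 had 10.9 FPKM in brain, 4.98 FPKM in testis and 0.0386 FPKM in liver. Between 2.0 and 2.1 on the log2 scale lay 55 of the 674, and 83 genes of the 5660 lay between 1.9 and 2.0.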

How the data were processed

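Levels were the FPKM values that the authors deposited per gene, each with an interval and a status of the estimate, per the file headers, which leave the level of the interval unnamed. Cufflinks 2.0.0, TopHat 1.4.0, Bowtie 0.12.5 and the mm9 build are listed in the submitters' processing notes. Not given in the sources used here are the gene annotation, the strand setting of the counting and the treatment of reads with several matches. The labels' protocols describe 76-cycle single-end reads in 3 lanes per library.

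From these values, levels were compared on log2(FPKM + 1) with no scaling between libraries (python 3.11.15, pandas 2.3.3), a scale that understates the difference of low genes. Loci of 200 bp or more with status OK in all 3 tables were used, and identifiers at more than 1 locus were summed. The deposited tables hold no counts, so depth was read from the interval widths, as implied fragments. Of low values 68.4% in brain, 67.9% in testis and 68.2% in liver gave whole fragments within 0.1, and no count test was run. Symbols and classes came from GENCODE M21 by identifier only, and coordinates of loci are those of the tables. Promoters came from RefSeq, 471 of 593 matched by symbol. Of 851 list entries, 5 were not found and 2 were found through an older symbol.

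The genes, lists and named genes were chosen with earlier results of these data known. Named were the genes with the largest difference to liver (12), the highest lower level (12), the largest and smallest brain minus testis (8 each), the 4 highest of each list, the 5 highest pseudogenes or noncoding genes, those next to the limits, marker members and paralog pairs. Some genes that this rule gave are not reported here. The ciliary complexes, the calmodulin, serine synthesis and metallothionein genes, the genes named outside the set, and those named for their promoter were chosen after their values were seen. The selection was tried on simulated data with equal levels in all libraries apart from counting noise, in which 200 genes were lowered in liver by known folds. These data held no scaling difference between libraries and no spread between animals, so they cannot show the effect of either. Alternatives covered the pseudocount, the scaling, the limits, the locus length, the status and the removal of a small share of the other libraries.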

Additional observations from a re-analysis of the deposited data

How the results depend on the processing

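The number of genes shared by brain and testis was 674, and it moved by more than 1.5 times with the scaling and with the limits. It was 406 after median-ratio scaling, 1166 after scaling to the protein-coding sum and 1115 after scaling to the FPKM sum over loci of 200 bp or more, and 406, 651 and 661 of these were among the 674. Over all loci compared, these 3 scalings shifted the median of brain minus liver by -0.42, 0.63 and 0.54, and of testis minus liver by -0.46, 0.04 and 0.08. It was 432 with a minimum of 10 FPKM, 1857 at 2-fold and 253 at 8-fold, which follows from the limits themselves. The other settings gave 593 to 879 genes. Lowering each library by 1% of the highest of the others, a setting added after the values were seen, gave 716, of which 633 were among the 674. The median of brain minus testis within the set, -0.33, reversed to 0.36 with the protein-coding sum and to 0.20 with the FPKM sum. The cause was not tested. The 98 genes for testis and liver against brain became 60 and 62 under the same scalings, and 136 with the median ratio, which gave 400 for brain and liver against testis. Of 102 named genes 102 remained with a pseudocount of 0.1, 100 with the protein-coding sum, 73 with the median ratio and 96 after lowering each library by 0.1%. No difference to liver changed sign, but those of Prm2 and Tnp1, 3.20 and 3.77 as deposited, became 0 after this lowering. No paired analysis was possible because there was 1 library per tissue. Liver was the deepest library, but the genes were chosen as low there, so the median gene of the set had 1202 implied fragments in brain, 1661 in testis and 73.0 in liver, and its liver value was the least precise.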

Other observations

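A further 89 genes passed the same levels but had an estimate not marked OK in at least 1 table, so they were not counted in the set. Chn1, which encodes a Rac GTPase-activating protein of neurons, had 656 FPKM in brain, 98.0 FPKM in testis and 0.161 FPKM in liver. Ak1, an adenylate kinase, had 105 FPKM in brain, 529.8 FPKM in testis and 0.0498 FPKM in liver. Acsl6, a long-chain acyl-CoA synthetase, had 97.7 FPKM in brain, 68.9 FPKM in testis and 0.0462 FPKM in liver. Kcnmb4, a beta subunit of calcium-activated potassium channels, had 53.5 FPKM in brain and 67.5 FPKM in testis and was listed at 0 in liver. Loci under 200 bp that passed the levels numbered 176.

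Small RNAs that are known to carry no poly(A) tail were among the 674 although the libraries were labelled as polyadenylated RNA. Rn7sk, the 7SK RNA that holds the elongation factor P-TEFb, had 663 FPKM in brain, 84.1 FPKM in testis and 2.13 FPKM in liver. Rnu3a, a nucleolar RNA, had 168 FPKM in brain, 78.4 FPKM in testis and 9.83 FPKM in liver. Rmrp, the RNA of RNase MRP, had 80.6 FPKM in brain, 8.29 FPKM in testis and 0.434 FPKM in liver. All 3 ran in the order brain, testis, liver. The part that the removal of RNA without a tail has in these differences was not tested.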
